A study of Mus musculus with 24 samples.

Results

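The response of Th2 cells to 500 nM JQ1 was measured in 2 pairs of arrays, 1 pair from unstimulated and 1 from reactivated cells. The 4 arrays were taken from the 24 of the series by their labelled cell type and treatment, and no measured value entered that choice. The cells were Th2 cells differentiated in vitro from female C57BL/6 mice, given 500 nM JQ1 for 6 hr or DMSO, the vehicle. On every array the sample was labelled with Cy3 and hybridised against Cy5-labelled naive CD4+CD62L+CD25-CD44lo T cells from lymph node and spleen, so each level below is a log2 ratio of sample over naive cells. The labels give the time of the DMSO arrays as 24 hr in the title and 6 hr in the source name, so it was treated as unknown. Both DMSO arrays lay on slide 1 and both JQ1 arrays on slide 2, so treatment, slide and the uncertain time cannot be told apart within the 4 arrays. The deposited labels give no replicate of any condition and do not say how many mice or cultures stood behind an array.

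Th2 cells are the helper lineage of the immune response to worms and of allergy. They are specified by the transcription factor GATA3 and release IL-4, IL-5 and IL-13 when their antigen receptor is engaged again. JQ1 occupies the acetyl-lysine pockets of the BET proteins. It releases them from chromatin, and with them part of the recruitment of the elongation kinase P-TEFb.

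A gene was called changed in a state when the JQ1 array differed from the DMSO array at least 2-fold, and it counted as measured if 1 or both arrays of the pair detected it in Cy3 over background. The probes well above background in Cy3 made up 52.0% and 50.4% of all on the DMSO arrays (unstimulated, reactivated) and 50.5% and 47.8% on the JQ1 arrays. With 1 array per condition, a difference within a pair has no replicate check. The naive reference on the same arrays gives a technical scale, since its normalised Cy5 signal differed between 2 of these arrays with a median SD of 0.191 (log2) over 6 pairs.

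The labelled identity was checked first. All 6 T cell markers (Cd3e, Cd3d, Cd3g, Cd4, Cd2, Lck) were well above background on all 4 arrays, as were 6 of 8 Th2 markers, among them Gata3, Il4, Il1rl1, Ccr4, Ccr8 and Maf. Several of these were not particular to the Th2 arrays. Il1rl1 stood at 5.51 in reactivated Th1 cells with DMSO against 3.91 in Th2 cells, and Maf at 1.74 in unstimulated Th1 cells against 0.94. Il4 and Il13 reached 3.07 and 3.71 in reactivated Th1 cells, below their 8.02 and 4.85 in Th2 cells. Gata3 (-0.52 and -0.33 in Th1 against 1.95 and 2.64 in Th2 cells) and Ccr8 (-0.01 and 0.03 against 0.58 and 1.71) stood lower in Th1 cells in both states. Il5 was above background in reactivated cells alone. Among 9 markers of other cells, Cd8a, Lyz2 and Ncr1 were below background on all 4 arrays. The B cell gene Ms4a1 stood above the naive reference on all 4, at 2.47 to 4.03, with a change with JQ1 of -1.56 in unstimulated and -0.70 in reactivated cells. Its part in the results was not tested. In RNA of whole cultures, fewer cells of a type and less RNA per cell cannot be told apart.

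The reactivated DMSO array departed from its label in another way, and so, for Ifng, did the reactivated JQ1 array. Tbx21, which encodes the Th1 master regulator T-bet, stood at -0.02 on the unstimulated and 4.64 on the reactivated Th2 DMSO array, against 5.41 and 6.11 on the matching Th1 DMSO arrays. Ifng, the Th1 effector cytokine, stood at 0.65 and 6.20 in Th2 and at 7.15 and 8.59 in Th1 cells. Cxcr3, a chemokine receptor of Th1 cells, stood at -0.06 and 4.11 in Th2 and at 4.04 and 4.75 in Th1 cells. These Th1 genes were close to the naive level in unstimulated Th2 cells and far above it in the same-labelled cells after reactivation, while Il4 rose from 3.52 to 8.02.

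JQ1 lowered more genes than it raised in each state. In unstimulated cells 295 of 13037 measured genes were at least 2-fold higher (2.26%) and 728 at least 2-fold lower (5.58%). In reactivated cells 359 of 12823 were higher (2.8%) and 722 lower (5.63%). Of all changed genes the higher ones made up 28.84% and 33.21%. With the arrays centred on their medians these shares were 13.97% and 11.37%, and with a shift set by the spike-in RNA 24.93% and 0.76%. That shift moved the median change of all genes in reactivated cells from -0.077 to -0.878, so the changes below are relative to the bulk of genes on each array.

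Among 12222 genes measured in both states, 428 changed at least 2-fold the same way in both, 141 higher (1.15%) and 287 lower (2.35%). These 141 made up 48.1% of the genes higher in unstimulated and 39.9% of those higher in reactivated cells, and the 287 made up 40.3% and 42.1% of the lower ones. A further 253 genes changed in unstimulated cells and lay within 0.5 (log2) of 0 or on the other side of it in reactivated cells, 61 higher and 192 lower. For reactivated cells alone the number was 275, with 102 higher and 173 lower. Under the spike-in shift the splits were 177 higher and 23 lower in unstimulated cells alone and 6 higher and 2854 lower in reactivated cells alone. With the scanner software's own log ratios the split in reactivated cells alone was 275 higher and 249 lower. Between these classes lay genes that passed 2-fold in 1 state and differed the same way by 0.5 to 1 (log2) in the other, 89 higher and 234 lower past 2-fold in unstimulated and 110 higher and 219 lower in reactivated cells. Only Car12 and Plk2 passed 2-fold in opposite directions, Car12 by 1.62 and -1.09 and Plk2 by 1.0 and -1.26 (unstimulated, reactivated). The threshold itself separates genes that hardly differ. Ap1s1 was just inside at -1.001 and -1.018, and Il7r, which encodes the IL-7 receptor, was just outside at -2.73 and -0.999.

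**Figure D1:**
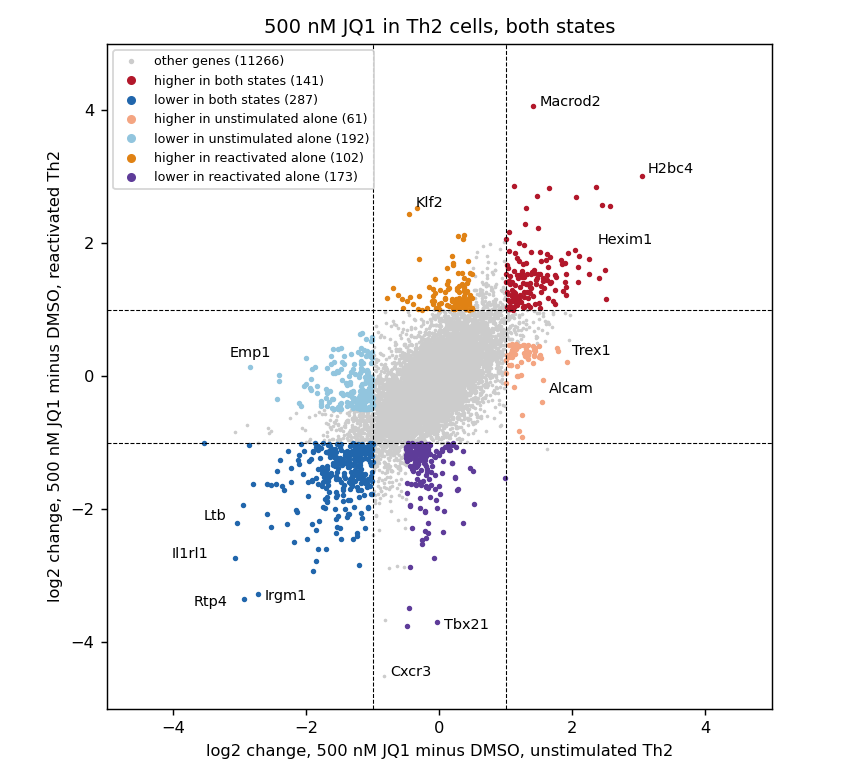
Log2 change with 500 nM JQ1 in unstimulated Th2 cells (x axis) against reactivated Th2 cells (y axis) for 12222 genes measured in both states. Each point is a gene, colours mark the 6 classes with their numbers, and dashed lines mark 2-fold. The 141 and 287 genes changed in both states fill the upper right and lower left corners, and Emp1, Klf2 and Tbx21 lie beside an axis.

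The 5 genes of largest mean rise in both states were H2bc4, Macrod2, Fam222a, Hs3st6 and H2aw. H2bc4, a histone H2B gene, stood at -1.03 with DMSO and 2.02 with JQ1 in unstimulated cells, and at -1.76 and 1.25 in reactivated cells. The change was 3.06 and 3.01, or 8.31- and 8.08-fold. Both JQ1 arrays lay above both DMSO arrays. H2aw, another histone gene, went from -2.24 to 0.20 and from -3.53 to -0.95, Fam222a from -0.63 to 1.73 and from -1.04 to 1.81, and Hs3st6, a heparan sulfate sulfotransferase, from 1.16 to 3.73 and from 0.97 to 3.53. In all of them the JQ1 arrays were the high ones and the groups did not overlap. These genes were chosen for large rises on the same arrays, which fixes the direction. Overlap was not counted over all genes. Macrod2, a hydrolase of ADP-ribosylated proteins, was the exception in evenness, going from 1.35 to 2.77 in unstimulated cells and from 0.25 to 4.31 in reactivated cells, a change of 1.42 against 4.06. With its 4 probes averaged the mean change of Macrod2 was 0.88, below 2-fold, in place of 2.74.

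The 5 genes of largest mean fall in both states were Rtp4, Irgm1, Il1rl1, Ltb and Bcl3. Il1rl1 encodes ST2, the receptor for IL-33 that marks Th2 cells. It stood at 3.47 with DMSO and 0.40 with JQ1 in unstimulated cells, and at 3.91 and 1.18 in reactivated cells, so that JQ1 lowered it by 3.07 and 2.73 and both JQ1 arrays lay below both DMSO arrays. Its mean change of -2.90 was -1.57 with its 3 probes averaged and -1.70 against the 50 nM arrays of the same slide. Ltb, which encodes lymphotoxin beta, went from -0.35 to -3.39 and from -2.31 to -4.52. Bcl3, a nuclear IκB family member that binds NF-kB subunits, went from -0.85 to -3.81 and from -0.62 to -2.55. Rtp4 and Irgm1, both induced by interferons, went from -3.03 to -5.97 and from -0.57 to -3.29 in unstimulated cells. In reactivated cells they went from -1.49 to -4.84 and from 1.73 to -1.54. For each of these 4 genes the JQ1 array of a state was the lower one by at least 1.93, and the levels of the 2 states differed as well. The direction in all 5 genes is fixed by their choice on the same arrays.

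**Figure D2:**
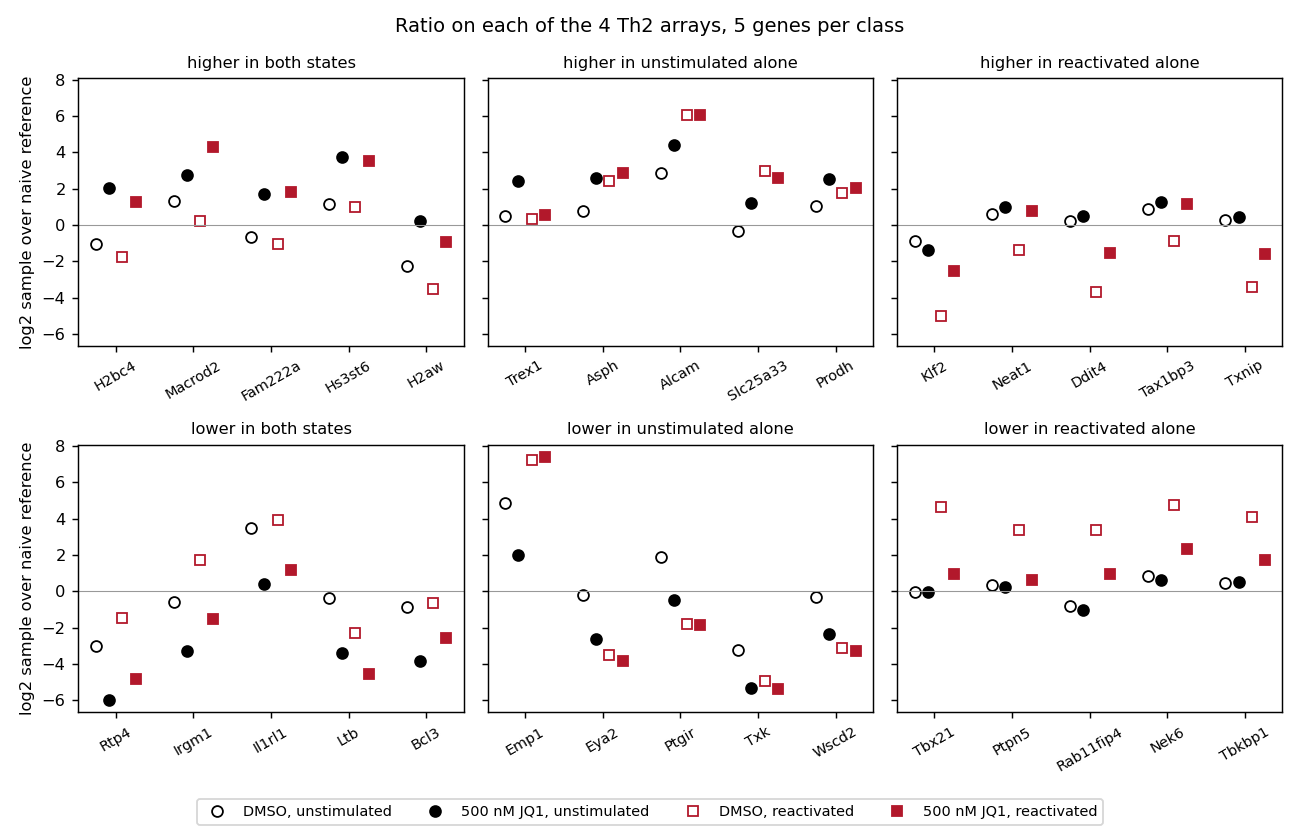
Log2 ratio of sample over naive reference (y axis) on each of the 4 Th2 arrays for the 5 named genes of each class, with DMSO as open and 500 nM JQ1 as filled symbols, circles unstimulated and squares reactivated. H2bc4 moves from -1.03 to 2.02 and from -1.76 to 1.25, whereas Emp1 moves in unstimulated cells and Tbx21 in reactivated cells.

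A limma fit over the 4 arrays, with state as a block and 1 residual degree of freedom, called 464 genes higher (3.68% of 12612) and 974 lower (7.72%) on average over both states (Benjamini-Hochberg adjusted p below 0.05). It called all 141 genes higher in both states and 286 of the 287 lower ones, which the choice of these genes from the same arrays fixes. The software's own log ratios gave 0 calls in that fit, with 3384 genes at an unadjusted p below 0.05. With the 50 nM arrays of slide 2, labelled 6 hr, in place of DMSO, 355 genes changed in unstimulated, 344 in reactivated cells, and 26 were higher and 81 lower in both. All 141 higher genes were also above and all 287 lower genes below the 50 nM arrays in both states, by medians of 0.89 and 0.90 for the higher and by -1.0 and -0.96 for the lower. These values use the same 500 nM arrays as the choice of the genes.

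Interferon-stimulated genes were among the lists with the lowest medians. They are the antiviral and GTPase genes switched on downstream of interferon receptors. Of 25 measured members, 12 were at least 2-fold lower in unstimulated and 17 in reactivated cells (5.58% and 5.63% over all genes) and 0 were higher. Their median change was -0.99 and -1.39, against -0.07 and -0.08 over all genes measured in both states. In the limma fit 17 of 25 were lower (7.72% over all genes) and 0 higher. At least 2-fold lower in both states were 11 members (2.35% over all genes), namely Rtp4, Irgm1, Xaf1, Oasl2, Usp18, Oas3, Oas1a, Gbp3, Ddx58, Gbp2 and Igtp.

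Some of these genes carry a known element close to their start sites. The core of the interferon-stimulated response element, GAAANNGAAA, was searched on both strands of the 250 bases before each RefSeq start site (build GRCm38.p6). It was found in 60% of the 20 list members with such a window, in 10.4% of 231 genes lower in both states, in 2.5% of 120 genes higher in both states and in 3.24% of 9810 genes measured in both states. Of the 11 list members lower in both states, 9 were searched and 6 held it, while Rtp4 and Usp18 were not searched. The list was made of interferon targets, so its own share is no result about JQ1. The stretches around the element are given for the 6 genes that were at least 2-fold lower in both states and hold it, 5′ to 3′ along the strand of the gene, with the element in capitals (its reverse complement in Gbp2 and Gbp3).
Irgm1, chr11:48871421-48871475, minus strand: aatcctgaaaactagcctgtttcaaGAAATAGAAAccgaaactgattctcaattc
Oas1a, chr5:120907526-120907570, minus strand: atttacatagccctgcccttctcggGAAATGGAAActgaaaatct
Oas3, chr5:120777700-120777759, minus strand: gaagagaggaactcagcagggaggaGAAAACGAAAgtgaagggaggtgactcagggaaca
Igtp, chr11:58199497-58199555, plus strand: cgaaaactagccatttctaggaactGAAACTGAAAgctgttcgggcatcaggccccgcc
Gbp2, chr3:142620579-142620638, plus strand: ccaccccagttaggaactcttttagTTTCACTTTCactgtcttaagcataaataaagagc
Gbp3, chr3:142559980-142560039, plus strand: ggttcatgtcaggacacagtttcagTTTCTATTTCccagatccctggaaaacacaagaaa

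The element began 20 bases before the start site in Oas1a, 30 in Irgm1, 34 in Igtp, 39 in Gbp3, 59 in Gbp2 and 75 in Oas3. A match of letters is a description of the promoter and says nothing of what binds there.

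In reactivated Th2 cells the antiviral members spanned a wide range. Oasl2, an oligoadenylate synthetase-like gene, stood at -2.75 with DMSO and -3.96 with JQ1 in unstimulated cells, and at -0.95 and -3.79 in reactivated cells. Usp18, which removes the ubiquitin-like modifier ISG15, went from -2.58 to -3.70 and from -0.72 to -3.00. Both had risen towards the naive level on reactivation with DMSO and lay far below it with JQ1. Isg15 and Ifit3 changed by -0.65 and -0.55 in unstimulated and by -0.64 and -0.93 in reactivated cells, short of 2-fold. Stat2, a transcription factor of the interferon pathway, changed by 0.41 and -0.26, and its partner Irf9 by -0.91 and -1.13.

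The same list moved otherwise in Th1 cells, whose DMSO and 500 nM arrays shared 1 slide and carried a 6 hr label. There its median was -0.47 in unstimulated and 0.06 in reactivated cells. Rtp4 changed by -0.85 and 0.20 in Th1 cells against -2.94 and -3.35 in Th2 cells. The change was lower in Th2 than in Th1 cells for 22 of 24 members measured in both unstimulated pairs and for 23 of 23 in both reactivated pairs. The difference between cell types was not tested. Reactivation without JQ1 also ran differently, with a median of 1.13 for this list in Th2 and -0.97 in Th1 cells. Within slide 2, the list's median for 500 over 50 nM JQ1 was -0.30 and -0.65, below 0 in 21 and 22 of 25 members, so that the fall was smaller than against the DMSO arrays of slide 1. At 50 nM against those DMSO arrays the list's median was already -0.51 and -0.86. Over all genes measured in both states it was -0.03 and -0.02. In that step dose and slide cannot be told apart.

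**Figure D3:**
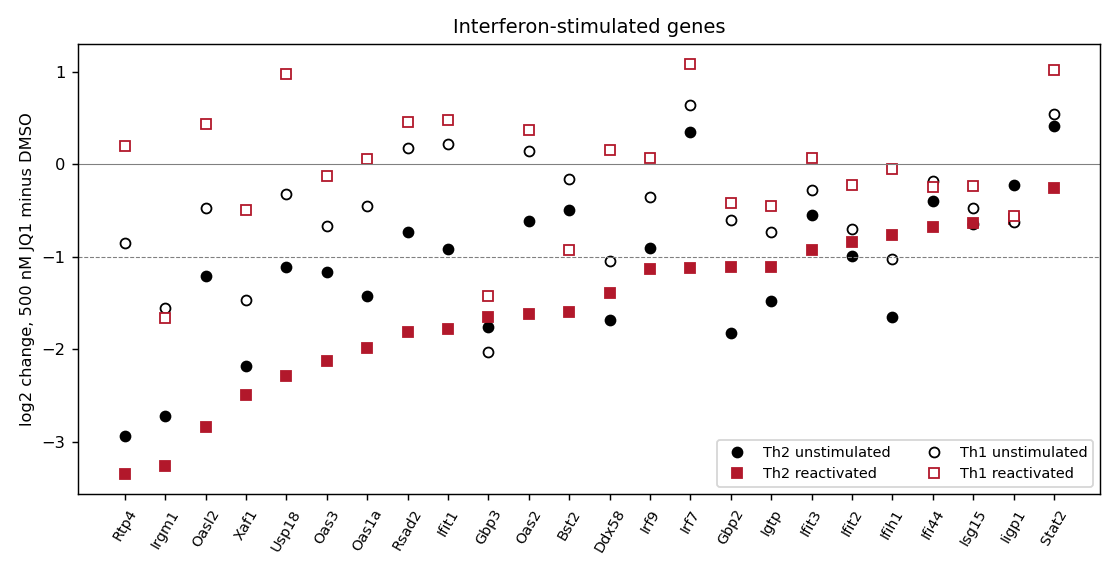
Log2 change with 500 nM JQ1 (y axis) for 24 of the 25 measured interferon-stimulated genes, in order of the change in reactivated Th2 cells, with Th2 pairs filled and Th1 pairs open, and a dashed line at 2-fold lower. Rtp4, Oasl2 and Usp18 lie at -3.35, -2.84 and -2.29 in reactivated Th2 cells and at 0.20, 0.44 and 0.98 in reactivated Th1 cells.

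Histone genes included members that rose and none that fell past 2-fold. They encode the core and linker proteins of the nucleosome. At least 2-fold higher were 10 of 52 in unstimulated and 11 of 50 in reactivated cells (2.26% and 2.8% over all genes), and 0 were lower. Higher in both states were 6 members (1.15% over all genes), H2bc4, H2aw, H1f2, H2ac18, H3f3a and H3f3b. H1f2, a linker histone, went from -0.87 to 1.18 and from -1.82 to 0.88. H3f3b, a replacement variant of histone H3, went from 0.64 to 2.41 and from 1.39 to 2.89. The list's median was 0.37 and 0.54, but -0.26 in reactivated cells under the spike-in shift. In the limma fit 12 of 51 were higher (3.68% over all genes) and 0 lower. Genes of DNA replication, which share the S phase with the replication-dependent histones, had medians of 0.02 and -0.16 and 1 of 26 lower past 2-fold in unstimulated cells (5.58% over all genes), E2f2 at -1.0, and 0 in reactivated cells (5.63%). Mitosis genes had medians of -0.19 and -0.20 and 0 members past 2-fold in either state, beside the same shares over all genes.

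Genes of the elongation machinery and the BET family behaved unevenly. Hexim1, whose protein holds P-TEFb in its inactive complex, stood at -0.84 with DMSO and 0.99 with JQ1 in unstimulated cells, and at -1.41 and 0.33 in reactivated cells, a change of 1.83 and 1.74. It was the one member of 26 higher past 2-fold in both states (1.15% over all genes). Cdk12, a kinase of elongating polymerase, changed by 1.01 and 0.61, and Cdk7, the initiation kinase, by -0.14 and -1.17. Brd2 went from 0.07 to 0.74 and from 0.63 to 1.53, below 2-fold in each state but called in the limma fit over both (mean 0.79, SE 0.17, adjusted p = 0.0392). The list's medians of 0.21 and 0.13 turned to 0.03 and -0.17 under median centring and to -0.67 in reactivated cells under the spike-in shift. Myc, a common target of BET inhibition in tumour cells, went from -1.18 to -1.66 and from 3.27 to 2.33, a rise on reactivation of 4.45 with DMSO and of 3.99 with JQ1 (mean change of Myc with JQ1 -0.71, SE 0.19, limma adjusted p = 0.0642).

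The Th2 programme itself split by gene. Gata3 stood at 1.95 with DMSO and 1.59 with JQ1 in unstimulated cells and at 2.64 and 3.06 in reactivated cells (limma mean 0.03, SE 0.23, adjusted p = 0.945). Maf, an activator of Il4, went from 0.94 to 1.23 and from 0.79 to 1.15. Neither transcription factor passed 2-fold. Of 19 measured Th2 transcription factors, 3 were lower past 2-fold in both states (2.35% over all genes). Pparg, a nuclear receptor of pathogenic Th2 cells, went from 1.91 to 0.38 and from 2.92 to 0.82, Gfi1, a repressor needed for Th2 growth, from 1.01 to -0.08 and from 3.21 to 2.09, and Bhlhe40, a cytokine regulator, from 3.25 to 2.20 and from 4.53 to 3.52. Batf, an AP-1 factor, changed by -0.93 and -1.58. In the other direction Ets1, an ETS family factor, passed 2-fold in reactivated cells, with changes of -0.07 and 1.47. In the limma fit 7 of 19 were lower (7.72% over all genes) and 0 higher. The list had medians of -0.36 and -0.69.

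Il4 stood at 3.52 with DMSO and 1.67 with JQ1 in unstimulated cells, and at 8.02 and 6.96 in reactivated cells. The change was -1.85 and -1.06, and the reactivated JQ1 array still lay above both unstimulated arrays. Il13 went from 1.07 to 0.16, the latter below background, and from 4.85 to 3.32. In these bright genes the reference channel moved with the sample, by a range of 0.69 for Il4 and 1.14 for Il13 over the 4 arrays. In Cy3 alone the reactivated change was -1.64 for Il4 and -2.67 for Il13. Il5 changed by -0.72 in reactivated cells, short of 2-fold. Il9 went from 6.15 to 4.60 and Il10, an anti-inflammatory cytokine, from 2.33 to 0.01, below background, in reactivated cells. Of 9 Th2 cytokines 5 were at least 2-fold lower in reactivated cells (5.63% over all genes) and 0 higher, with a median of -1.06 that was 0 in the software's own log ratios, -1.76 in Cy3 alone and -1.89 in the deposited table. In unstimulated cells 1 of 6 measured was lower (5.58% over all genes), Il4. The limma fit called 2 of 8 lower (7.72% over all genes), Il4 (mean -1.46, SE 0.23, adjusted p = 0.0208) and Il13 (mean -1.22, SE 0.21, adjusted p = 0.0242).

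Some receptors of Th2 cells differed by state and others did not. Ccr4, a homing receptor of Th2 cells, changed like Il1rl1 in both states, from 3.08 to 1.40 and from 2.82 to 1.00. Il2ra, the high-affinity chain of the IL-2 receptor, went from 4.57 to 2.56 in unstimulated cells and from 5.44 to 5.71 in reactivated cells. Its shared chain Il2rb went from 2.95 to 1.86 and from 4.26 to 4.32, and the costimulator Icos from 0.95 to -0.25 and from 2.04 to 2.68. These 3 genes were low on the unstimulated JQ1 array alone. Cish, a feedback inhibitor induced by IL-2 through STAT5, followed with 1.85 to 0.01 and 4.45 to 4.30. In the test of the difference between states (given below) 4 of 14 Th2 receptors were called (1.6% over all genes), and in each the JQ1 effect was higher in reactivated cells.

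A few genes of antigen receptor signalling fell in both states. Prkcq, a kinase linking the receptor to NF-kB, went from -0.92 to -2.60 and from -2.05 to -3.92. Lck, the kinase that starts the signal, went from -1.75 to -3.71 and from -3.20 to -4.46, and Zap70 from -0.62 to -1.65 and from 0.17 to -1.59. Of 24 measured, 4 were past 2-fold lower in both states, these 3 and Cd2 (2.35% over all genes), and 0 were higher in either. The medians were -0.48 and -0.47, and the limma fit called 6 lower (7.72% over all genes). Among 20 costimulatory and inhibitory receptors 5 were lower in both states (2.35% over all genes), the inhibitory Btla, Cd5 and Cd6, and Cd27 and Tnfrsf18 of the TNF receptor family. The inhibitory receptors Havcr2 and Tigit were lower in reactivated cells alone, by 1.84 and 1.95. In the NF-kB list 3 of 21 were lower in both states (2.35% over all genes), Bcl3, Ltb and Traf1, and the list's medians were -0.48 and -0.36. The NF-kB consensus was found in 10.5% of all promoter windows, in 13.4% and 5% of those of genes lower and higher in both states, in 18.8% and 13.5% of those lower and higher in unstimulated cells alone, and in 14.6% and 12.8% of those lower and higher in reactivated cells alone. In Ltb it lay 87 bases before the start site, shown in capitals as its reverse complement.
Ltb, chr17:35194395-35194454, plus strand: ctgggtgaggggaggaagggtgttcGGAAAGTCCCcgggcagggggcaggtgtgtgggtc

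Of the BCL2 family, which balances survival against cell death, 1 of 15 measured members was at least 2-fold higher and 3 were lower in unstimulated cells (2.26% and 5.58% over all genes). In reactivated cells 1 of 13 was higher and 2 were lower (2.8% and 5.63%). The median change of the family was -0.55 and -0.53. Bcl2l11, which encodes the pro-apoptotic BIM, went from 0.22 to 1.85 and from 1.94 to 3.12. The pro-survival Bcl2l2 went from 1.53 to -0.16 and from 1.12 to -0.23, and Bak1, a pore-forming death effector, from 0.42 to -0.97 and from 0.16 to -0.96. The pro-survival Bcl2 went from -0.59 to -1.52 and from -0.34 to 0.33. Its fitted effect of JQ1 in the test of the difference between states (given below) was higher in reactivated cells by 1.38 ± 0.21 (SE, limma adjusted p = 0.0131). Bid, a pro-apoptotic member, went from -1.18 to -0.47 and from 0.68 to -0.14. The fitted difference between states for Bid was -1.25 ± 0.24 (SE, limma adjusted p = 0.0265). Gadd45a, a p53 target that answers DNA damage, went from 0.21 to 1.73 and from -0.20 to 1.67. The p53 list as a whole had medians of -0.06 and -0.16. Hspa1a, an inducible heat shock chaperone, changed by 1.35 and 1.27. Of 17 measured genes of the integrated stress response, 4 were at least 2-fold higher in unstimulated and 3 in reactivated cells (2.26% and 2.8% over all genes), and 0 were lower. Atf4, Slc3a2, Slc7a5 and Ddit3 passed 2-fold in unstimulated cells, with 1.5, 1.16, 1.42 and 1.20 there and 0.46, 0.41, 0.69 and 0.92 in reactivated cells. Ddit4, Trib3 and Sesn2 passed it in reactivated cells, with 2.11, 1.13 and 1.18 there and 0.28, 0.25 and 0.50 in unstimulated cells. In the limma test of the difference between states Ddit4 was called (adjusted p = 0.0238) and the other 6 were not (adjusted p of 0.0738 to 0.939). The integrated stress response list had medians of 0.28 and 0.05. In reactivated cells its median was -0.19 under median centring and -0.75 under the spike-in shift.

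**Figure D4:**
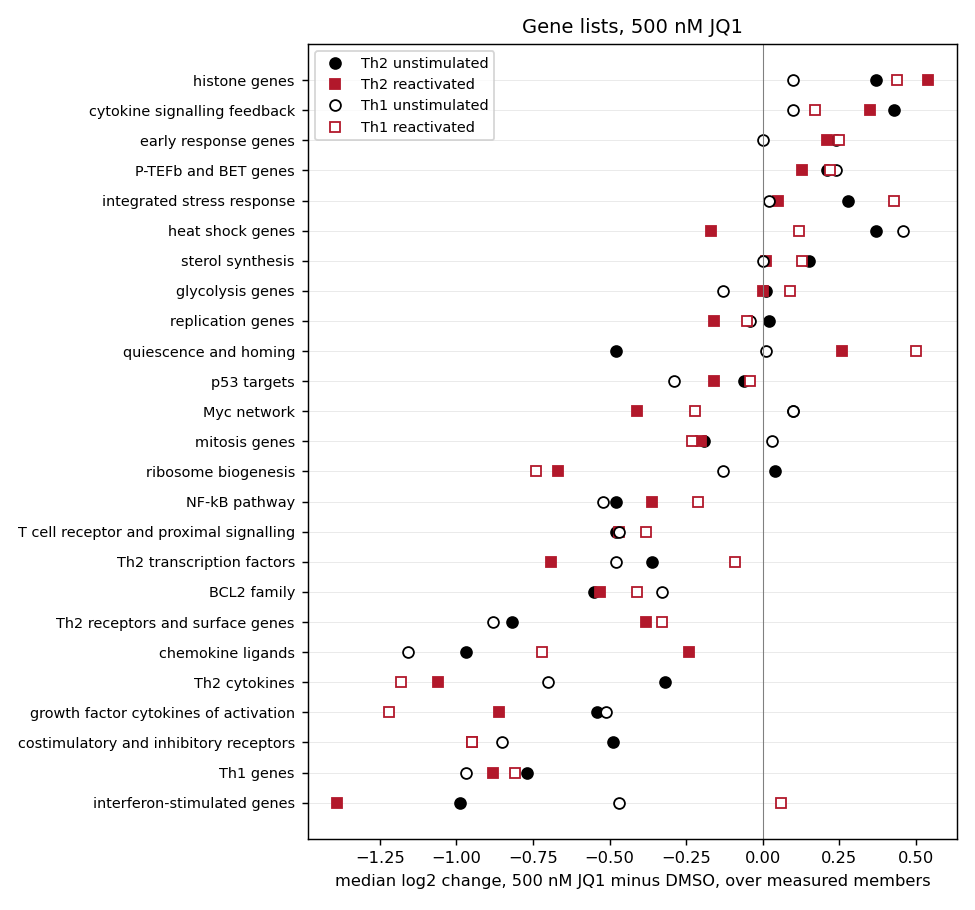
Median log2 change with 500 nM JQ1 (x axis) over the measured members of 25 gene lists, with Th2 pairs filled, Th1 pairs open, circles unstimulated and squares reactivated. Interferon-stimulated genes lie at -0.99 and -1.39 in Th2 cells and at -0.47 and 0.06 in Th1 cells, and ribosome biogenesis lies at 0.04 in unstimulated and -0.67 in reactivated Th2 cells.

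Genes lower in unstimulated cells alone were led by Emp1, Eya2, Ptgir, Txk and Wscd2. Emp1, a membrane protein, stood at 4.88 with DMSO and 2.02 with JQ1 in unstimulated cells, and at 7.25 and 7.40 in reactivated cells. Ptgir, the prostacyclin receptor, went from 1.91 to -0.50 and from -1.77 to -1.84. Eya2, a transcriptional cofactor, went from -0.18 to -2.61 and from -3.48 to -3.82, Txk, a Tec family kinase, from -3.21 to -5.30 and from -4.94 to -5.38, and Wscd2 from -0.33 to -2.36 and from -3.14 to -3.29. In the last 4 both reactivated arrays lay below the unstimulated DMSO array, whereas Emp1 was highest on both reactivated arrays. S1pr1 and Tcf7, genes of lymphocyte egress and of memory, had the former pattern, with changes of -1.70 and 0.12 and of -1.48 and -0.25.

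Over all 192 genes the median ratio was 0.11 with DMSO and -1.09 with JQ1 in unstimulated cells, and -1.40 and -1.58 in reactivated cells. Ccl1 belongs to this class by its ratio (1.83 to -0.09 and 2.64 to 2.76), but its reference signal ranged over 8.06 (log2), and in Cy3 alone it changed by -2.68 and -4.10. Ccl1 and Slc22a15 were the only genes of the 4 one-state classes that passed 2-fold the same way in the other state in Cy3 alone.

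Higher in unstimulated cells alone were 61 genes, led by Trex1, Asph, Alcam, Slc25a33 and Prodh. Trex1, a cytosolic DNA exonuclease, stood at 0.48 with DMSO and 2.40 with JQ1 in unstimulated cells and at 0.32 and 0.54 in reactivated cells. Alcam, an adhesion molecule, went from 2.85 to 4.41 and from 6.08 to 6.03, and Slc25a33, a mitochondrial pyrimidine carrier, from -0.30 to 1.24 and from 2.98 to 2.60. Asph went from 0.80 to 2.57 and from 2.44 to 2.87, and Prodh, a proline oxidase, from 1.03 to 2.56 and from 1.78 to 2.06. In Alcam and Slc25a33 both reactivated arrays were the highest of the 4. Jun and Ier5, early response genes, rose past 2-fold in this state alone, by 1.33 and 1.16.

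Genes higher in reactivated cells alone were led by Klf2, Neat1, Ddit4, Tax1bp3 and Txnip. Klf2, a factor of quiescence and homing, stood at -0.89 with DMSO and -1.35 with JQ1 in unstimulated cells, and at -4.99 and -2.54 in reactivated cells. Ddit4, an inhibitor of mTOR, went from 0.22 to 0.50 and from -3.68 to -1.56, and Txnip, an inhibitor of thioredoxin and glucose uptake, from 0.27 to 0.46 and from -3.40 to -1.59. Neat1, a nuclear long RNA, went from 0.60 to 0.97 and from -1.36 to 0.77, and Tax1bp3 from 0.91 to 1.26 and from -0.89 to 1.17. In each of the 5 the reactivated DMSO array was the lowest of the 4. Ccr7, a lymph node homing receptor, and Mxd4, an antagonist of MYC, had changes of 1.33 and 1.63 in reactivated and of -0.69 and 0.12 in unstimulated cells.

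Genes lower in reactivated cells alone were led by Tbx21, Ptpn5, Rab11fip4, Nek6 and Tbkbp1. Tbx21 stood at -0.02 with DMSO and -0.05 with JQ1 in unstimulated cells, and at 4.64 and 0.94 in reactivated cells. Nek6, a mitotic kinase, went from 0.82 to 0.62 and from 4.76 to 2.33, and Rab11fip4, a trafficking adaptor, from -0.79 to -1.05 and from 3.39 to 0.93. Ptpn5 went from 0.33 to 0.25 and from 3.37 to 0.64, and Tbkbp1, an adaptor of the kinase TBK1, from 0.44 to 0.49 and from 4.08 to 1.74 (in Cy3 alone it fell by 3.30 in reactivated cells). In each of the 5 the reactivated DMSO array stood above the other 3. Tbx21 rose in Th2 cells by 4.66 on reactivation with DMSO and by 1.00 with JQ1, and it changed by -0.26 and -0.29 with JQ1 in Th1 cells, where it was high in both states.

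Genes changed in 1 state alone were often genes that reactivation itself moves, when this was read on the Th1 DMSO arrays, which took no part in choosing them. Of genes lower in reactivated cells alone, 99 of 169 (58.6%) were at least 2-fold higher on reactivation of Th1 cells without drug, against 8.18% of all 12782 genes measured there. Of those higher in reactivated cells alone, 38 of 102 (37.3%) were at least 2-fold lower on reactivation, against 8.39% of all. In unstimulated cells the directions matched reactivation. Of genes lower in unstimulated cells alone, 84 of 187 (44.9%) were lower on reactivation, and of those higher there, 25 of 57 (43.9%) were higher on reactivation. Genes higher in both states gave 9 and 15 of 135 (6.67% higher, 11.1% lower), and genes lower in both states 37 and 49 of 287 (12.9% and 17.1%).

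**Figure D5:**
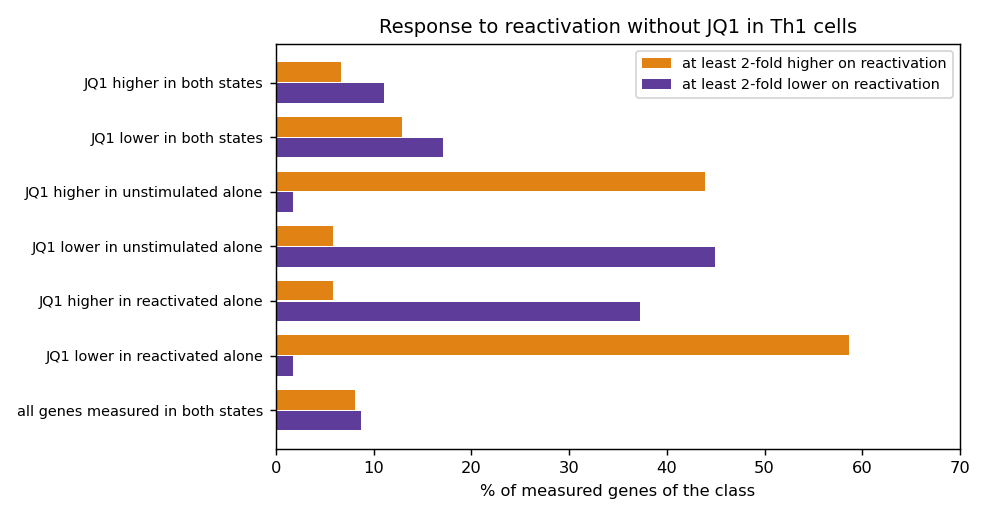
Share of each class (x axis, % of its genes measured in Th1 cells) that was at least 2-fold higher or lower on reactivation of Th1 cells with DMSO, with 1 bar per direction. The bar for genes lower with JQ1 in reactivated cells alone reaches 58.6% higher on reactivation, against 8.05% for all genes measured in both Th2 states.

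Whether the JQ1 effect differed between the states was tested over 12 arrays, with each 500 nM and DMSO array assumed to vary like the 50 nM effect over the 4 contexts (3 residual degrees of freedom). The baseline of each context was fitted to its DMSO and 50 nM arrays together, with a 50 nM effect common to all contexts. The differences given are those of the fit and need not equal the differences between the levels printed. In that limma fit 381 of 12914 genes differed, 207 with a higher effect in reactivated cells (1.6%) and 174 with a lower one (1.35%). The 12 arrays include the 4 that chose the classes. Klf2 had a difference of 2.49 (SE 0.32, adjusted p = 0.00735), Emp1 of 2.72 (SE 0.32, adjusted p = 0.00667) and Macrod2, by its brightest probe, of 2.62 (SE 0.20, adjusted p = 0.000739). Fut7, which makes selectin ligands, had a difference of 2.30 and Pdlim4 of 1.93. Fut7 went from 4.33 to 0.78 in unstimulated and from 0.21 to -0.80, below background, in reactivated cells, and Pdlim4 from -0.58 to -3.65 and from -4.36 to -5.20. In the other direction Cxcr3 differed by -3.13 (SE 0.44, adjusted p = 0.00953), Tbx21 by -3.03 (SE 0.42, adjusted p = 0.00953), Bdh2 by -2.91, Trpm6 by -2.75 and Fasl, the death ligand, by -2.65. Cxcr3 went from -0.06 to -0.89 in unstimulated and from 4.11 to -0.40 in reactivated cells, Fasl from -1.66 to -2.47 and from 2.69 to -0.98. Bdh2 went from 0.45 to -0.03, below background, and from 6.43 to 2.67, and Trpm6, a magnesium channel, from 0.71 to 0.26, below background, and from 5.10 to 1.62. With the 50 nM arrays as controls 0 genes were called, with 1607 at an unadjusted p below 0.05, and without the reactivated Th2 50 nM array the count was 780.

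The 30 ribosome biogenesis genes make ribosomal RNA and assemble ribosomes. The median change was 0.04 in unstimulated and -0.67 in reactivated cells, and 7 of 30 were called with a lower effect in reactivated cells (1.35% over all genes) and 0 with a higher one. Dkc1, a pseudouridine synthase, went from -0.56 to -0.68 and from 2.25 to 0.98, and Rrp9 from -1.35 to -1.04 and from 2.24 to 1.26. Both stayed well above the unstimulated arrays. Under median centring the unstimulated median was -0.14 and the reactivated one -0.94. Quiescence and homing genes had medians of -0.48 and 0.26 and 7 of 20 called with a higher effect in reactivated cells (1.6% over all genes). The reactivated median was -0.02 under median centring, and under the spike-in shift the medians were -0.52 and -0.54.

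Some genes were detected with DMSO and not with JQ1, and the reverse was not counted. The probes above background made up 52.0% with DMSO and 50.5% with JQ1 in unstimulated cells. In reactivated cells they made up 50.4% and 47.8%. Well above background with DMSO and not with JQ1 were 678 genes in unstimulated and 782 in reactivated cells, beside 13037 and 12823 measured. For only 25 and 35 of them was the fall in Cy3 alone at least 2-fold against the lowest signal counted as above background on the JQ1 array. For the others this bound was under 2-fold. In unstimulated cells these Cy3 bounds were at least 5.82-fold lower for the chemokine Ccl1, whose ratio to the moving reference differed 3.76-fold, 3.69-fold for Fcrla and 3.62-fold for Sirt5, a mitochondrial desuccinylase. In reactivated cells they were at least 5.58-fold lower for Il33, 4.88-fold for the receptor kinase Axl and 4.70-fold for Morrbid, a long RNA that restrains Bcl2l11. Il33 was not detected in unstimulated cells on either array.

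Genes changed in both Th2 states were next read in Th1 cells. In unstimulated Th1 cells, where 2.12% of 12524 genes were at least 2-fold higher and 4.34% lower with 500 nM JQ1, 104 of the 141 higher genes were higher (73.8%, and 39.2% of the Th1 list). Of the 287 lower ones 177 of 285 measured were lower (62.1%, and 32.5% of the Th1 list). In reactivated Th1 cells, with 2.75% of 12472 genes higher and 6.35% lower, 98 of 141 were higher (69.5%, and 28.6% of the Th1 list) and 179 of 286 lower (62.6%, and 22.6%). These Th1 pairs lay on 1 slide and share no array with the Th2 pairs. For H2bc4 the Th1 changes were 2.85 and 2.88, for Hexim1 1.78 and 1.60, and for Il1rl1 -2.22 and -3.79. Genes within 0.5 (log2) of 0 in both Th1 pairs numbered 10 of 284 lower and 1 of 141 higher genes. They included, chosen here after their values were seen, Oasl2, Oas1a, Slfn1, Ms4a4b, Gzmb and Bhlhe40 among the lower and Cadm1 as the higher one. Cadm1 changed by 1.58 and 1.34 in Th2 and by 0.36 and 0.35 in Th1 cells, and Bhlhe40 by -1.05 and -1.01 in Th2 and by 0.03 and 0.11 in Th1 cells.

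One-state genes were read in Th1 cells as well. Of genes lower in unstimulated Th2 cells alone, 62 of 187 (33.2%) were lower in unstimulated Th1 cells and 4 of 178 (2.25%) in reactivated Th1 cells. Of those lower in reactivated Th2 cells alone, 102 of 169 (60.4%) were lower in reactivated and 15 of 157 (9.55%) in unstimulated Th1 cells. For the higher genes the shares were 17 of 60 (28.3%) and 3 of 58 (5.17%) for unstimulated alone, and 50 of 102 (49.0%) and 3 of 101 (2.97%) for reactivated alone. No test was run on these shares.

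At 50 nM JQ1, against the same DMSO arrays, the genes higher in both states had medians of 0.44 and 0.53 and the lower ones of -0.45 and -0.45. Genes lower in unstimulated cells alone had medians of -0.41 and -0.06, and those lower in reactivated cells alone of -0.13 and -0.46. With 10 µM flavopiridol, an inhibitor of P-TEFb and other cyclin-dependent kinases, on slide 3 and against the same DMSO arrays, genes higher in both states had medians of -0.71 and -0.32 and lower ones of -0.53 and -0.40. The corresponding medians of all genes were -0.30 and -0.19. Genes lower in reactivated cells alone had -0.06 and -1.68, and those lower in unstimulated cells alone -0.49 and 1.18. Hexim1 changed by -1.08 and 1.13 and Il1rl1 by -1.42 and -1.76 with flavopiridol. Since all these comparisons share the DMSO arrays, the values are set side by side and no relation between the drugs is read from them.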

How the data were processed

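RNA of Th1 and Th2 cells had been hybridised to dual-colour Agilent arrays, and 16 of the 24 arrays were used. The authors deposited scanner files from Feature Extraction 10.7.1.1 (grid build mm9) with the median spot and background intensity of both channels and, per the file headers, a log10 ratio of Cy5 over Cy3. They also deposited a table of log2 ratios whose normalization is not given in the sources used here, and which followed the ratios computed here with r of 0.981 to 0.996. The per-sample columns of the other 8 arrays were not used. Columns were matched to samples by their labels.

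Median intensities were background-corrected with normexp (offset 50) and loess-normalised (R 4.3.3, limma 3.58.1), and ratios were turned to log2 of sample over naive reference. Control and flagged spots were left out, spots of a probe were averaged and the brightest probe stood for a gene. Of 55681 probes, 26437 had a symbol through RefSeq, for 20028 genes. Within a pair the call was a 2-fold difference. Tests were limma's with Benjamini-Hochberg adjustment at 0.05, checked on simulated data, where 95% of 2-fold and 100% of 4-fold differences between states were recovered with 8.02% of calls false over 12914 genes. For the mean effect the share recovered was 100% at either size, with 9.91% of calls false. These shares describe the simulated data alone. They do not show how many real changes the fit of the mean effect recovered, since treatment and slide cannot be told apart there. The residual of that fit is also the difference between states itself. p-values measure the spread between contexts, since no condition was repeated.

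Members and lists were chosen with earlier results of these data known, so list counts are descriptions. Named genes were, per class, the 5 of largest change above background on all 4 Th2 arrays, the list members past 2-fold, the 3 of largest bound per state, the 5 of largest state difference in each direction and a fixed set, reported here for Il4, Il5, Il13, Il10, Gata3, Maf, Il1rl1, Myc, Hexim1 and Brd2. Some genes that the rule or the lists hold are not reported here. The element of interferon promoters was added after the data were seen. Alternatives are given in the closing section.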

Additional observations from a re-analysis of the deposited data

Results flagged for a closer look

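The JQ1 effect differed between reactivated and unstimulated Th2 cells, by the limma test of the difference itself over 12 arrays, in 207 genes with a higher and 174 genes with a lower effect in reactivated cells. The 5 largest differences in each direction (log2, reactivated minus unstimulated) were 2.72 for Emp1, 2.62 for Macrod2, 2.49 for Klf2, 2.30 for Fut7 and 1.93 for Pdlim4, and -3.13 for Cxcr3, -3.03 for Tbx21, -2.91 for Bdh2, -2.75 for Trpm6 and -2.65 for Fasl. Of these 10 genes, Cxcr3, Tbx21, Bdh2, Trpm6 and Fasl stood highest of the 4 arrays on the reactivated DMSO array.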

How the results depend on the processing

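No paired analysis was possible because of the single replicate number that the groups share, with 1 array per condition. The fit of the mean effect pairs arrays by state, not by replicate. Counts that moved over 1.5 times were these. With the scanner software's log ratio, 2279 genes changed in unstimulated cells, 2398 in reactivated cells, 984 in both, 452 in unstimulated and 524 in reactivated cells alone, and the limma fits called 0 for the mean effect (3384 at an unadjusted p below 0.05) and 0 for the state difference (1987). With a 1.5-fold threshold the 5 counts were 2890, 3165, 1530, 626 and 772. With 50 nM JQ1 on the same slide as the control, 355 genes changed in unstimulated and 344 in reactivated cells, 26 were higher and 81 lower in both, and 87 and 93 changed in unstimulated and in reactivated cells alone. Under the spike-in shift 5155 genes changed in reactivated cells, 718 in both and 2860 in reactivated cells alone, and the mean effect was called for 771. The mean effect was called for 2648 genes under median centring, 865 in Cy3 alone, 924 with all probes of a gene averaged, 3366 over 6 Th2 arrays, 6160 over 12 arrays and 0 with no state block (732 at an unadjusted p below 0.05). The state difference was called for 172 genes in the deposited table, 252 with all probes averaged, 248 with slide as a fixed term and 0 with the 50 nM arrays as controls (1607 at an unadjusted p below 0.05). Leave-one-out fits gave 323 to 780, the highest without the reactivated Th2 50 nM array. Higher genes made up 32.94% of those changed in both states and 11.32% under median centring or 3.34% under the spike-in shift. For unstimulated cells alone the share went from 24.11% to 88.5% and for reactivated cells alone from 37.09% to 0.21% under that shift. With the scanner software's log ratio the share for reactivated cells alone was 52.48%. For the state difference the share of 54.33% became 40.22% under median centring and 1.14% under the spike-in shift. Median centring moved the median change of all genes to -0.212 and -0.275, and the spike-in shift to -0.108 and -0.878. The other counts stayed within 1.5 times. Each of the 30 class genes kept its sign under all 7 alternatives that give a change, and 109 of those 210 values moved by more than the reference SD of 0.191. Below 2-fold were Macrod2 with its probes averaged (0.88) and, against the same-slide 50 nM arrays, Slc25a33 (0.97) and Ptpn5 (-0.76). The cause of these shifts was not tested. Precision is limited by 1 array per condition and, for genes near background, by signal.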
